A study of Schizosaccharomyces pombe with 2 samples.

Results

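The genes described here encode the pheromone receptors of fission yeast (*map3* and *mam2*), the G protein subunit that relays their signal (*gpa1*), and the proteins that dampen it (*rgs1* and *sxa2*). They are 5 of the 4997 features of an oligonucleotide array, and were chosen by name from the genes that the study lists as lowered in *lsg1Δ* cells. The list was drawn from these same arrays, so that the 5 genes are lower here is a consequence of the choice and is given as a description. RNA was compared between *lsg1Δ* cells (strain JT659, h90 *lsg1::kanR ade6-M216 leu1*) and wild-type cells (strain JY450, h90 *ade6-M216 leu1*), both homothallic haploids. The *lsg1* gene encodes the γ subunit of CTDK-I, a kinase that phosphorylates the tail of the large RNA polymerase II subunit, and its whole ORF is replaced in JT659. Cells of both strains were moved at mid-log phase into medium without nitrogen and collected after 2.5 h according to the sample titles, while the treatment label gives 2 h. Each strain is represented by 1 single-color (Cy3) array, which allows no test. What the deletion did and how 2 cultures or 2 hybridizations happened to differ cannot be told apart.

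Nitrogen starvation drives fission yeast into sexual development. Cells of the P mating type secrete P-factor and carry the receptor for M-factor, whereas M cells secrete M-factor and carry the receptor for P-factor. Both receptors are seven-transmembrane proteins that act through the Gα subunit Gpa1, which in this yeast transmits the signal positively to Ras1 and a MAP kinase cascade. Rgs1 belongs to the regulators of G protein signaling, which speed up GTP hydrolysis by Gα, and Sxa2 is a secreted serine carboxypeptidase of M cells that degrades P-factor. The HMG-family transcription factor Ste11 is needed for the starvation-induced expression of mating genes. Homothallic cultures hold cells of both mating types, so in this bulk RNA fewer cells of a type and less RNA per cell cannot be told apart.

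All 5 genes had less signal in *lsg1Δ* than in wild-type, and all were past 2-fold. This was the case for 1.06% of the 4997 features, and nothing is read from the count because the genes were selected on this contrast. The falls were unequal. They were largest for *rgs1* (7.51-fold) and *map3* (5.24-fold), intermediate for *mam2* (3.03-fold), and smallest for *sxa2* (2.46-fold) and *gpa1* (2.43-fold). Each gene is read by 7 probes with 2 spots each. All 35 probes were lower in *lsg1Δ*, and 33 of them were past 2-fold, against 1.38% of the 34977 probes of the array. Every probe of a feature was lower in 16.9% of all features. After normalization, 70 of 70 spots of these genes were lower in *lsg1Δ* than the matching spot in wild-type. In scanned intensity 70 of 70 were also dimmer in *lsg1Δ*. That array was dimmer as a whole, with a median spot of 5685.5 against 6737 in wild-type, so the scanned count carries little weight. The share of all spots is given for neither count, and both describe genes selected as lower. A fold here is the median-polish summary of the probes after background correction and quantile normalization, and the SD beside a log2 ratio (*lsg1Δ* over wild-type) is that of the 7 probe ratios. It is a technical spread and says nothing of variation between cultures.

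**Figure D1:**
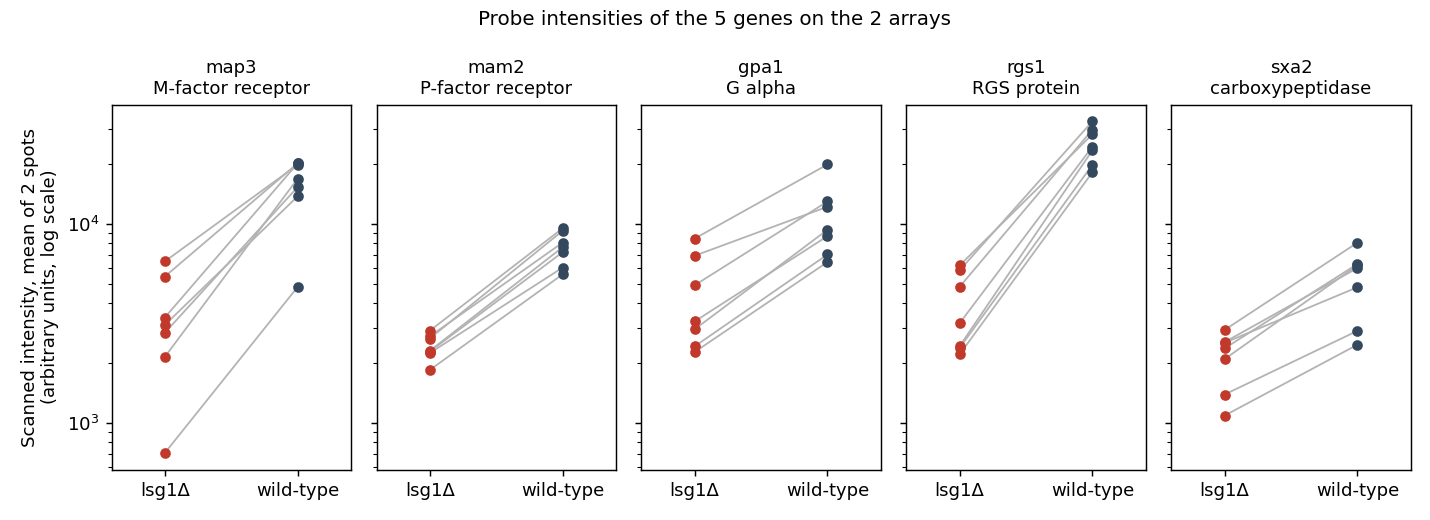
Scanned intensity of the 7 probes of each gene (mean of 2 spots, arbitrary units, log axis) in *lsg1Δ* (left, red) and wild-type (right, dark), with a line joining the values of 1 probe. Every line goes up to wild-type, most steeply for *rgs1*, and the lowest point is the *map3* probe with an intensity of 705 in *lsg1Δ*.

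The files identify features by array identifiers without gene names. The study's list gives a log2 ratio for each locus, and each of its 64 ratios matched exactly 1 feature of the deposited normalized values to within 5e-05. By this match *map3* (SPAC3F10.10c) is feature TI4896S003935, *mam2* (SPAC11H11.04) is TI4896S004718, *gpa1* (SPBC24C6.06) is TI4896S001838, *rgs1* (SPAC22F3.12c) is TI4896S003021 and *sxa2* (SPAC1296.03c) is TI4896S003035. The other 4933 features are unnamed here. The deletion itself was visible. Probes of *lsg1* gave 176.5 to 212.5 on the *lsg1Δ* array, against 1547.5 to 12362 on the wild-type array. The 5th percentile of spot intensity, 912 in *lsg1Δ* and 1108.65 in wild-type, served as the background limit. By this measure 34 of the 35 probes of the 5 genes were above background in *lsg1Δ* and 35 of 35 in wild-type, and none of their spots was saturated. The exception is a *map3* probe at 705, dim but brighter than the *lsg1* probes on the same array. The limit is a percentile of all spots, so most spots of any gene pass it. The median spot was 5685.5 in *lsg1Δ* and 6737 in wild-type.

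The receptors were lowered to different degrees. For *map3*, the M-factor receptor of P cells, probe intensities ran between 705 and 6490.5 in *lsg1Δ* (median 3109), against 4829.5 to 20235 in wild-type (median 16930.5). Each probe was between 3.07-fold and 7.89-fold dimmer in *lsg1Δ* before any correction. After normalization the log2 ratio was -2.39 (SD 0.70 over 7 probes), and *lsg1Δ* retained 19.1% of the wild-type level. The deposited normalized intensity was 1574.03 in *lsg1Δ* and 11163.08 in wild-type, a 7.09-fold difference. The SD of the *map3* probes lies at the 97.9th percentile of all features, so its probes did not move alike. The probes at positions 51, 125, 276 and 576 of the target had log2 ratios of -2.51, -3.01, -2.39 and -2.07, while those at positions 922 and 1017 had smaller falls of -1.76 and -1.46. The largest fall, -3.49 at position 696, belongs to the only probe below background in *lsg1Δ*, and is -2.53 with no background correction. With that probe left out the log2 ratio of *map3* is -2.23, and with an RMA background adjustment of all spots it is -3.09.

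In the RefSeq annotation 99.8% of *map3* overlaps *his6*, a gene of histidine synthesis that is also on the study's list. The probes of *his6* fall into separate sets by position. At positions 110, 155 and 191 the log2 ratios were 0.46, 0.16 and 0.33, with 1506, 2539 and 3816 in *lsg1Δ* and 1460.5, 2777 and 3751.5 in wild-type. At positions 423, 533, 618 and 704 the log2 ratios were -0.96, -1.03, -1.29 and -1.27, with intensities of 6322.5 to 9128.5 in *lsg1Δ* and 17296.5 to 20127.5 in wild-type. The *his6* probes up to position 191 thus showed no fall, whereas those from position 423 fell, each by less than any *map3* probe. Labeling is not described as keeping strand in the sources used here, so signal from overlapping genes cannot be told apart. The part of *map3* RNA in the *his6* signal, or of *his6* RNA in the *map3* signal, was not tested.

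For *mam2*, the P-factor receptor of M cells, probe intensities ran between 1845 and 2907 in *lsg1Δ* (median 2302), against 5587.5 to 9525.5 in wild-type (median 7653.5). The 7 probes gave nearly the same answer, with log2 ratios between -1.73 and -1.37 and a summarized ratio of -1.60 (SD 0.13). *lsg1Δ* retained 33.0% of the wild-type level. Its probe SD is at the 34.2nd percentile of all features, the tightest of the 5 genes. The deposited intensity was 1015.76 in *lsg1Δ* and 4541.75 in wild-type, a larger difference of 4.47-fold (log2 ratio -2.16), and the RMA adjustment gives -2.21. Between the receptors, the difference of *map3* minus *mam2* was -0.79 on the log2 scale, with 6 of its 7 probes below every *mam2* probe. The probe at position 1017 of *map3* overlapped the *mam2* range. In the deposited values the same difference was -0.67.

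The Gα gene *gpa1*, which serves both receptors, had a smaller fall than either receptor or *rgs1*. Its probes gave 2273 to 8463 in *lsg1Δ* (median 3240), against 6451 to 19977.5 in wild-type (median 9377). The log2 ratio was -1.28 (SD 0.32), and *lsg1Δ* retained 41.1% of the wild-type level. The probes at positions 64 and 229 had the smallest falls, -1.06 and -0.61, and the other 5, at positions 487 to 1108, lay between -1.57 and -1.25. The *gpa1* probe at position 229 is 1 of only 2 probes among the 35 that were not past 2-fold. The deposited intensity was 1681.47 in *lsg1Δ* and 5508.23 in wild-type (log2 ratio -1.71), and the RMA adjustment gives -1.90.

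The signal dampers did not share a size of fall. Transcripts of *rgs1*, encoding the GTPase-activating protein, were at 13.3% of the wild-type level in *lsg1Δ* (log2 ratio -2.91, SD 0.45). Its probes gave 2211 to 6196.5 in *lsg1Δ* (median 3171), against 18249.5 to 32950.5 in wild-type (median 24565). The probes formed separate sets. Those at positions 201, 497, 516 and 1174 had log2 ratios of -3.09, -2.91, -3.31 and -3.08, and those at 720, 773 and 798 had smaller falls of -2.37, -2.53 and -2.05. The latter were also the brightest *rgs1* probes in wild-type (28354.5 to 32950.5, against 18249.5 to 24565 for the others). Position and brightness cannot be told apart, and neither was tested. The deposited intensity was 1559.27 in *lsg1Δ* and 19985.12 in wild-type, a 12.8-fold difference (log2 ratio -3.68), more than 1.5 times that found here. With the RMA adjustment the log2 ratio is -4.08. The size of the *rgs1* fall thus depends on the processing, while its place as the largest of the 5 does not.

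For *sxa2*, which encodes the P-factor-degrading carboxypeptidase, probes gave 1088 to 2934.5 in *lsg1Δ* (median 2369.5), against 2473 to 8068 in wild-type (median 6014). The log2 ratio was -1.30 (SD 0.24), and *lsg1Δ* retained 40.7% of the wild-type level. The first and last probes by position were among those with the smallest falls, -1.06 at position 93 and -0.78 at position 1346, and the other 5 lay between -1.52 and -1.12. The deposited intensity was 986.07 in *lsg1Δ* and 3050.26 in wild-type (log2 ratio -1.63). With no background correction the log2 ratio of *sxa2* is -0.98, which is not past 2-fold. Under quantile normalization its place beyond that threshold thus rests on the background correction. In the RefSeq annotation 6.2% of *sxa2* overlaps *cox4*, a gene not named on the array here. Signal from these genes cannot be told apart where they overlap.

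**Figure D2:**
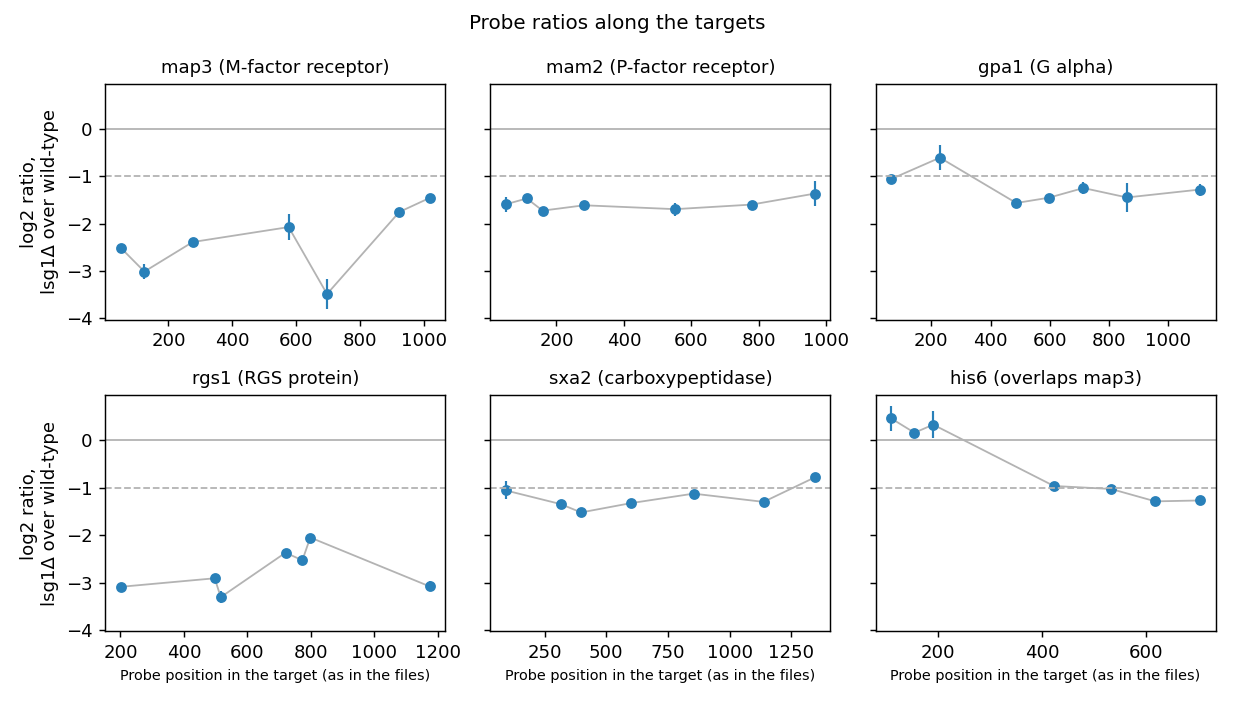
log2 ratio of each probe (*lsg1Δ* over wild-type) against its position in the target as the files give it, for the 5 genes and for *his6*. Points are means of 2 spots, vertical lines join the ratios of the spots taken alone, and the dashed line marks a 2-fold fall. The *mam2* probes form a flat line near -1.60, and the *his6* probes are above 0 up to position 191 and between -1.29 and -0.96 from position 423.

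A 2-spot design allows the technical error of single probes to be seen. For the 35 probes the log2 ratios of the separate spots differed by a median of 0.13 and by at most 0.63, which was the difference for the dim *map3* probe at position 696. The split of the *rgs1* probes was present in either set of spots, with ratios of -3.18 to -2.97 and -2.58 to -2.12 in the first set, and -3.44 to -2.84 and -2.48 to -1.97 in the second. Summarized over probes, the first and second spots gave -2.97 and -2.84 for *rgs1*, -2.46 and -2.35 for *map3*, -1.66 and -1.56 for *mam2*, -1.30 and -1.24 for *sxa2*, and -1.41 and -1.15 for *gpa1*. Both sets of spots come from the same hybridizations.

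When the 5 genes were compared with each other in all 10 pairs, 3 pairs had separate probe ranges. The highest *rgs1* probe, at -2.05, lay below every probe of *mam2*, *sxa2* and *gpa1*, and the summarized *rgs1* ratio minus theirs was -1.31, -1.61 and -1.63 on the log2 scale. The other 7 pairs overlapped. With no background correction 4 pairs were separate, since the ranges of *map3* and *sxa2* then no longer overlapped. The difference of *rgs1* minus *map3* was -0.52. That of *mam2* was -0.30 against *sxa2* and -0.32 against *gpa1*. The ratio of *sxa2* minus that of *gpa1* was -0.02, far less than the spread of their probes. No test was made of these differences, since probes of 1 array pair are not replicates. The order *rgs1*, *map3*, *mam2* from the largest fall was the same in all 14 settings run, namely the main processing and 13 alternatives. The order of *sxa2* and *gpa1* was not, with *sxa2* the lower in 7 settings and *gpa1* in the other 7. The settings are not independent. Those that keep only probes above background drop no probe of *sxa2* or *gpa1* and return their main values, so the even split carries no weight.

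**Figure D3:**
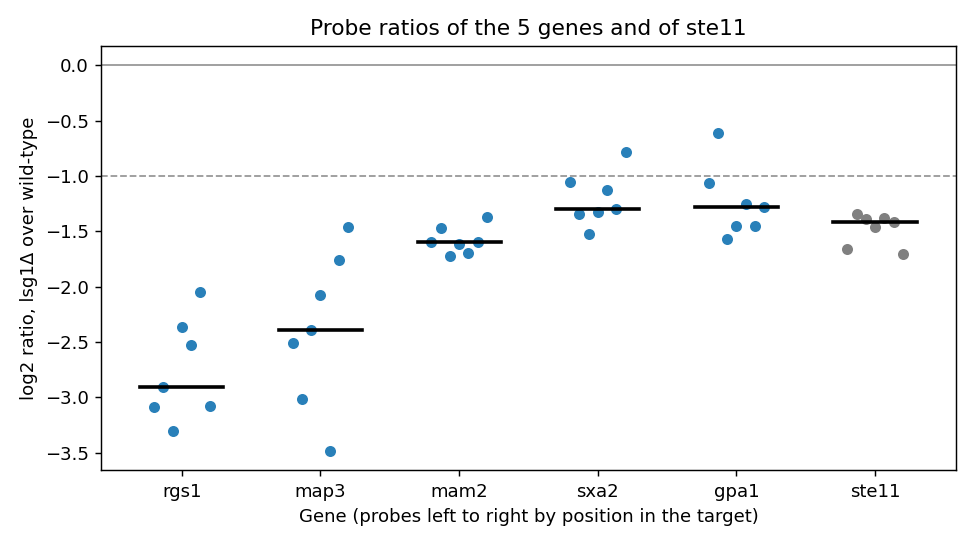
log2 ratio of each of the 7 probes (*lsg1Δ* over wild-type) for the 5 genes and, in gray, for *ste11*, ordered within a gene by position. Black bars are the median-polish summaries and the dashed line marks a 2-fold fall. The *rgs1* probes lie between -3.31 and -2.05, below all probes of *mam2*, *sxa2*, *gpa1* and *ste11*.

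Across the array, *rgs1* had the 5th lowest ratio of the 4997 features, *map3* the 9th, *mam2* the 22nd, *sxa2* the 30th and *gpa1* the 32nd. The 5th and 95th percentiles of all features were -0.42 and 0.42, and 12 features (0.24%) were lower past 4-fold, *rgs1* and *map3* among them. Every probe was past 2-fold for *map3*, *mam2* and *rgs1*, as it was for 0.54% of all features. In the deposited table, whose values chose the study's list and where 1.28% of features were lower past 2-fold, the 5 genes ranked 3rd (*rgs1*), 7th (*map3*), 15th (*mam2*), 23rd (*gpa1*) and 26th (*sxa2*). The features just inside and just outside the 2-fold limit of that list had deposited log2 ratios of -1.005 and -0.995.

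**Figure D4:**
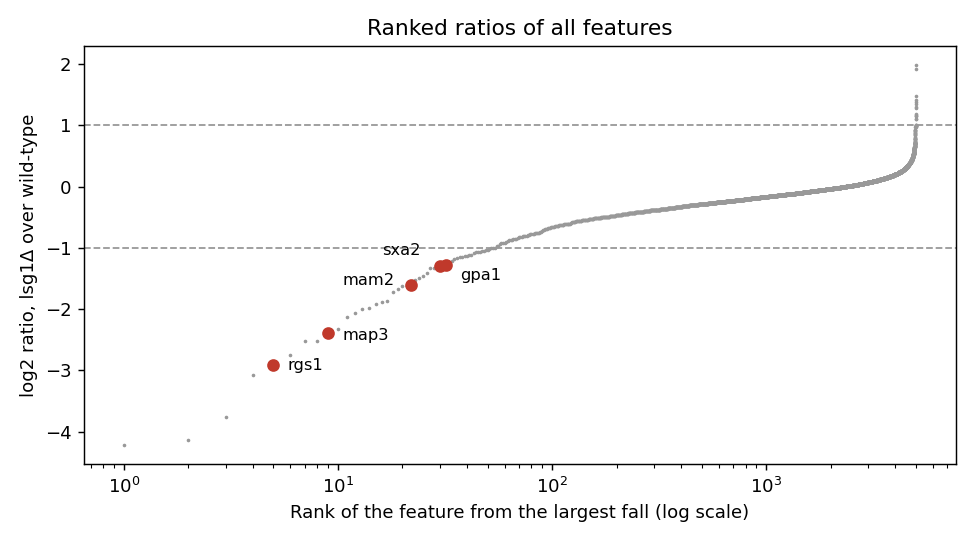
log2 ratio (*lsg1Δ* over wild-type) of all 4997 features against rank from the largest fall (log axis), with the 5 genes in red. The dashed lines mark 2-fold changes. All 5 genes lie among the 53 features below the lower line, *rgs1* and *map3* at ranks 5 and 9.

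Transcripts of *ste11*, the transcription factor of the mating program, had a log2 ratio of -1.41 (SD 0.15), with a median probe intensity of 7770.5 in *lsg1Δ* and 23546 in wild-type. Against it, *gpa1* and *sxa2* differed by 0.13 and 0.12 on the log2 scale, less than the SD of the *ste11* probes. The ratio of *mam2* minus that of *ste11* was -0.19, with overlapping probe ranges. The same difference was -0.97 for *map3* and -1.49 for *rgs1*. The *rgs1* probes did not overlap those of *ste11*, and 1 of the 7 *map3* probes overlapped them, since its highest ratio was -1.46 and the lowest of *ste11* was -1.71. In the deposited values the gap to *ste11* was -2.01 for *rgs1*, -1.16 for *map3*, -0.50 for *mam2*, -0.05 for *gpa1* and 0.04 for *sxa2*.

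The genes of the study's list closest in ratio to each of the 5 were found over the same 2 arrays. With 1 ratio per gene, closeness means only a like size of fall. The ratio of *rgs1* lay between those of *mfm2*, an M-factor precursor gene (-3.07), and *ppk33*, a protein kinase gene (-2.75). The *map3* ratio lay between those of *ste6*, the Ras1 exchange factor (-2.52), and *lsd90* (-2.32). Closest to *mam2* were *ste4*, an adaptor of the MAP kinase kinase kinase Byr2 (-1.62), and *spk1*, the MAP kinase (-1.62). Both *gpa1* and *sxa2* were closest to *mam1*, the M-factor transporter gene (-1.29), and then to SPACUNK4.17 (-1.33). Closeness depends on the processing, since in the deposited values *ppk33* is at -2.08 and *rgs1* at -3.68.

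Of 26 other genes of pheromone production and response, 16 could be named on the array, and 15 of these were lower past 2-fold in *lsg1Δ*. Over all features 1.06% were lower and 0.34% higher past 2-fold, and none of the 16 was higher. Only genes of the study's list of lowered genes can be named, so the count is not evidence of a direction. Their median log2 ratio was -1.90, against 0.01 over all features. With the main processing, pheromone precursor genes had larger falls than any receptor or damper, with log2 ratios of -4.22 for *map2* (P-factor), -3.76 for *mfm1* and -3.07 for *mfm2* (M-factor). This place does not hold for *rgs1* and *map3* in every setting. The ratio of *rgs1* was below that of *mfm2* in the deposited values (-3.68 for *rgs1* and -3.28 for *mfm2*). It was also below *mfm2* with no background correction and with odd-numbered probes. With the RMA adjustment *rgs1* was below *mfm1* (-3.66), and *map3* (-3.09) was below *mfm2* (-3.03). Some precursor probes were below background in *lsg1Δ*, and with probes above background on both arrays *map2* is at -3.74 and *mfm1* at -3.75. Genes of the cascade below Gpa1 are given by size of fall, not by their order in the cascade. They were *ste6* (-2.52), *shk2*, a PAK-family kinase (-2.07), *spk1* and *ste4* (-1.62 for either), and *byr1*, the MAP kinase kinase (-0.88). Only *byr1* of the 16 was not past 2-fold, and in the deposited values it was (-1.02). The other 10 listed genes, among them *sxa1*, *ras1*, *byr2* and *gnr1*, are not analysed here.

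Named markers of the mating types come from the study's list of lowered genes, so their direction, and the deposited intensities that chose the list, are a description. The P-cell genes *map2*, *map3* and *map4*, an adhesin gene, had log2 ratios of -4.22, -2.39 and -1.88, and their summed deposited intensity was 7972.32 in *lsg1Δ* and 50681.07 in wild-type. The 6 of 7 M-cell genes that could be named had log2 ratios between -3.76 (*mfm1*) and -1.29 (*mam1*), *mam2* and *sxa2* among them, and summed to 6883.35 in *lsg1Δ* and 32217.45 in wild-type. Within either mating type the receptor was thus lowered less than a pheromone precursor gene of the same cells. The share of P and M cells in the cultures was not measured, and its part in the receptor ratios was not tested.

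**Figure D5:**
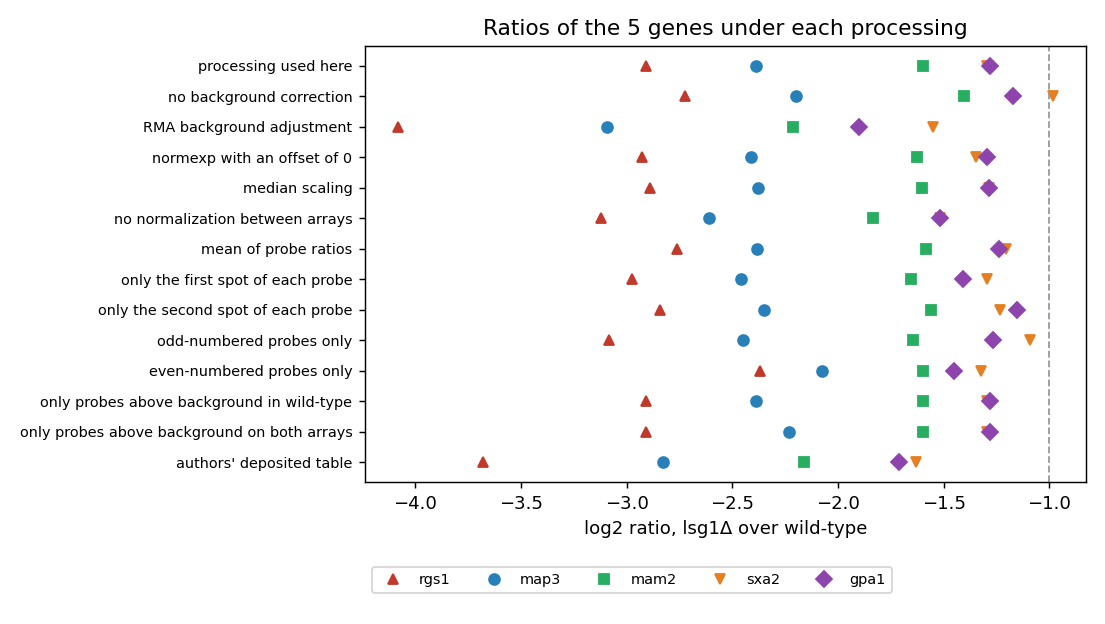
log2 ratio (*lsg1Δ* over wild-type) of the 5 genes under the processing used here (top) and 13 alternatives. The dashed line marks a 2-fold fall. *rgs1* is leftmost in every row, followed by *map3* and *mam2*, and *sxa2* is right of the dashed line only with no background correction.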

How the data were processed

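Roche Applied Science, Japan, scanned and normalized the arrays for the authors. Linear intensity values of single spots, without any background measure, are in the deposited scanner output. Linear normalized intensity values, 1 per feature, are in a second deposited table, whose last 4997 rows repeat its first and whose normalization the sources used here do not describe. Sorted feature identifiers were matched to its rows in order, and deposited and scanned log2 levels had an r across features of 0.98 on either array.

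Processing used R 4.3.3 and limma 3.58.1, with normexp background correction with an offset of 50, quantile normalization over all 69954 spots, averaging of the 2 spots of a probe on the log2 scale, and median polish over probes. Figures were made with matplotlib 3.10.9. With 1 array per strain nothing was tested, and precision is limited by the number of arrays. On simulated arrays of 4997 features, 60 of 60 features made 3-fold lower came out past 2-fold, with a median log2 ratio of -1.82 for a true -1.58. Of 60 made 6-fold lower, 59 came out past 2-fold, with a median of -2.94 for a true -2.58, and of 60 made 1.5-fold lower, 0, with a median of -0.60 for a true -0.58. The larger falls were thus overestimated there. The folds were set on intensities that still held background, which the processing then subtracted. The size of this overestimate therefore does not carry over to the real arrays. Of 4797 left unchanged, 0 were called. Both simulated arrays came from the same wild-type levels with only the spread between spots. They hold no difference between cultures or hybridizations, so the 0 calls give no rate of false calls for the real arrays.

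The 5 genes, the gene lists and the alternatives were chosen with earlier results of these data known. Other genes were named by rule: *lsg1*, *ste11*, listed pathway and mating-type genes, the 2 listed genes closest in ratio to each of the 5, and overlapping or adjacent genes on the study's list. RefSeq assembly ASM294v3 gave current symbols, and held 60 of the 64 loci. No coordinate is given, since no source used here names the build behind the array design. Sequences and promoter motifs were not analysed here.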

Additional observations from a re-analysis of the deposited data

How the results depend on the processing

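No paired analysis was possible because the strains have 1 array apiece, and no result comes from a test. Of 13 alternatives, 1 (only probes above background on both arrays) was added after seeing the data. Over these, 53 of 65 ratios of the 5 genes stayed within the probe SD, 12 moved, 0 changed sign and 64 were past 2-fold. That SD is each gene's own, 0.70 for *map3* and 0.13 for *mam2*, so genes whose probes disagree stay within it more easily. The authors' deposited table is 1 of the alternatives and chose the study's list, so its ratios were past 2-fold by construction. Of all 4997 features, 39 to 81 were lower past 2-fold in the alternatives. The filters on background dropped only 1 probe of the 5 genes, so most ratios under them repeat the main values by construction. The ranges were -4.08 to -2.37 for *rgs1*, -3.09 to -2.07 for *map3*, -2.21 to -1.40 for *mam2*, -1.90 to -1.15 for *gpa1* and -1.63 to -0.98 for *sxa2*. With no background correction, *mam2* and *sxa2* were at -1.40 and -0.98, and 6 features were higher past 2-fold in place of 17. With the RMA background adjustment, *mam2*, *gpa1*, *rgs1* and *sxa2* were at -2.21, -1.90, -4.08 and -1.55, and 26 features were higher. In the authors' deposited table the same 4 genes were at -2.16, -1.71, -3.68 and -1.63. With even-numbered probes *rgs1* was at -2.37. With no normalization between arrays the median of all features shifts to -0.20, *mam2* was at -1.83, and 81 features were lower in place of 53 and 8 higher. The causes were not tested. The pathway list gave 15 or 16 lower genes throughout, but its named genes were all chosen as lower in the deposited table. Low signal limits 1 *map3* probe, and some probes of *map2* and *mfm1*.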
